A study of Mus musculus with 17 samples.

Results

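The Hox genes of the adult mouse kidney were read in 17 mRNA-seq libraries of whole kidneys from 5 genotypes. The members were the 39 protein-coding genes whose GENCODE GRCm38 symbol is Hox followed by a cluster letter (a to d) and a paralog number, of 35971 genes with listed transcripts. The HoxA cluster gave 11 members (chromosome 6, 52155590 to 52260880), HoxB 10 (chromosome 11, 96194316 to 96368256), HoxC 9 (chromosome 15, 102921103 to 103036852) and HoxD 9 (chromosome 2, 74668310 to 74765142). Members were chosen by their names alone and selected on no measured value, but the family was proposed with results of these libraries in view. Counts of members are therefore given as descriptions, beside the share of all genes tested that passed the same call.

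All 5 groups carried the lsl-PRCC-TFE3 KI allele at Rosa26, from which the PRCC-TFE3 fusion oncogene of translocation renal cell carcinoma is made once Cre removes a stop cassette, and the kidneys were taken at 8 months of age. The Cre(-) group (n = 4) had no Cre, and its replicates 1 and 2 carried HIF1af/f while replicates 3 and 4 had no floxed Hif allele. All 4 were used together, and how the calls of lower members differed with one pair of them alone is given beside the results. The PRCC-TFE3 KI group (n = 3) carried KSP-Cre, the Hif1α KO group (n = 4) KSP-Cre with HIF1af/f, the Hif2α KO group (n = 3) KSP-Cre with HIF2af/f, and the DKO group (n = 3) KSP-Cre with both floxed alleles. KSP-Cre is driven by the Cadherin 16 promoter in kidney tubule epithelium, so stromal, vascular and immune cells of these whole kidneys are not its target, and the study asked which of the HIF1α and HIF2α hypoxia factors the tumors of this model need. The labels do not say whether the libraries of a group came from separate litters or days, so p-values measure the spread between these libraries only.

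Hox genes encode homeodomain transcription factors that lie in 4 clusters, in the order in which they are used along the body axis, with low paralog numbers for anterior and high numbers for posterior structures. The kidney arises from the intermediate mesoderm at the trunk, where the Hox11 paralogs act with Eya1 and Pax2 to induce the ureteric bud, and Hoxb7 marks that bud and the collecting duct made from it. Adult tubules keep a Hox pattern from development, under the opposing marks of Polycomb and Trithorax complexes, and Hox proteins bind DNA with the TALE partners of the Pbx, Meis and Pknox families.

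Library totals ran from 16504419 to 24668827 counts per library. The floxed genes were counted per gene and not per exon, so they check the labels in part only. Hif1a was at 117 ± 10.8 CPM (counts relative to library size, SD, n = 4) in Cre(-), 215 ± 26.5 (n = 3) in PRCC-TFE3 KI, 186 ± 15.9 (n = 4) in Hif1α KO and 188 ± 14.7 (n = 3) in DKO kidneys. Epas1, which encodes HIF2α, was at 181 ± 9.46, 144 ± 6.68 and 160 ± 5.07 CPM in PRCC-TFE3 KI, Hif2α KO and DKO kidneys (n = 3 each), and at 225 ± 29.2 in Cre(-) and 170 ± 6.99 in Hif1α KO kidneys (n = 4 each). The ranges for Hif1a overlapped between PRCC-TFE3 KI and Hif1α KO libraries, and those for Epas1 did not between PRCC-TFE3 KI and Hif2α KO libraries. Epas1 was already lower in PRCC-TFE3 KI than in Cre(-) libraries (173 to 192 against 196 to 257 CPM). In PRCC-TFE3 KI replicate 2 the summed level of 7 adipocyte markers was 3038 TPM (transcript abundance relative to length and library size), against 72.4 and 200.9 in the other PRCC-TFE3 KI libraries. The counts for PRCC-TFE3 KI against Cre(-) are therefore also given without it, as are the calls kept in Hif1α KO and DKO against PRCC-TFE3 KI kidneys.

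In Cre(-) kidneys 30 of the 39 members reached a mean of 1 TPM and 17 reached 10 TPM, and their TPM values summed to 562.5 ± 7.78 (SD, n = 4). Hoxd8 was highest, at 110.9, 104.5, 115.6 and 100.4 TPM in replicates 1 to 4, and no library of the next gene, Hoxa9 (45.47 ± 5.32 TPM, SD, n = 4), came near it. Hoxa10 (38.33 ± 1.94 TPM), Hoxa7 (36.95 ± 1.90), Hoxb8 (34.95 ± 3.34) and Hoxb6 (33.80 ± 2.88) followed (SD, n = 4 each), and each of these overlapped its neighbor in the order. Hoxb7, Hoxb9 and Hoxd9 formed the next set at 28.55 ± 1.15, 27.93 ± 3.12 and 27.71 ± 3.07 TPM (SD, n = 4). By position, genes with paralog numbers 4 to 8 held 60 ± 1.60% of the summed Hox TPM, numbers 9 to 13 held 30.5 ± 1.22% and numbers 1 to 3 held 9.5 ± 0.39% (SD, n = 4). These positions take in 15, 16 and 8 of the 39 members. Hoxd8 alone gave 107.9 of the 337.6 TPM of numbers 4 to 8 in the Cre(-) mean, so much of that share was 1 gene.

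The posterior ends of the clusters, and Hoxb1 and Hoxd1 at anterior ends, were nearly silent. Hoxa13, Hoxb1, Hoxb13, Hoxc12, Hoxc13, Hoxd1, Hoxd12 and Hoxd13 did not pass the filter on low counts and were not tested. Among them, Hoxb1 patterns the embryonic hindbrain, and Hoxa13 and Hoxd13 the digits and the external genitalia. Their counts summed over all 17 libraries ran from 1 (Hoxb13 and Hoxc12) to 29 (Hoxb1). Hoxa13 had 0 counts in each of the 4 Cre(-) libraries, which allows up to 0.206 CPM in the shallowest of them, and 14 of its 28 counts came from PRCC-TFE3 KI replicate 2. The other 31 members passed the filter, and the fits below are on these, in CPM scaled by TMM, a normalization that assumes most genes do not change. Levels of different genes are compared in TPM, which accounts for transcript length.

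**Figure D1:**
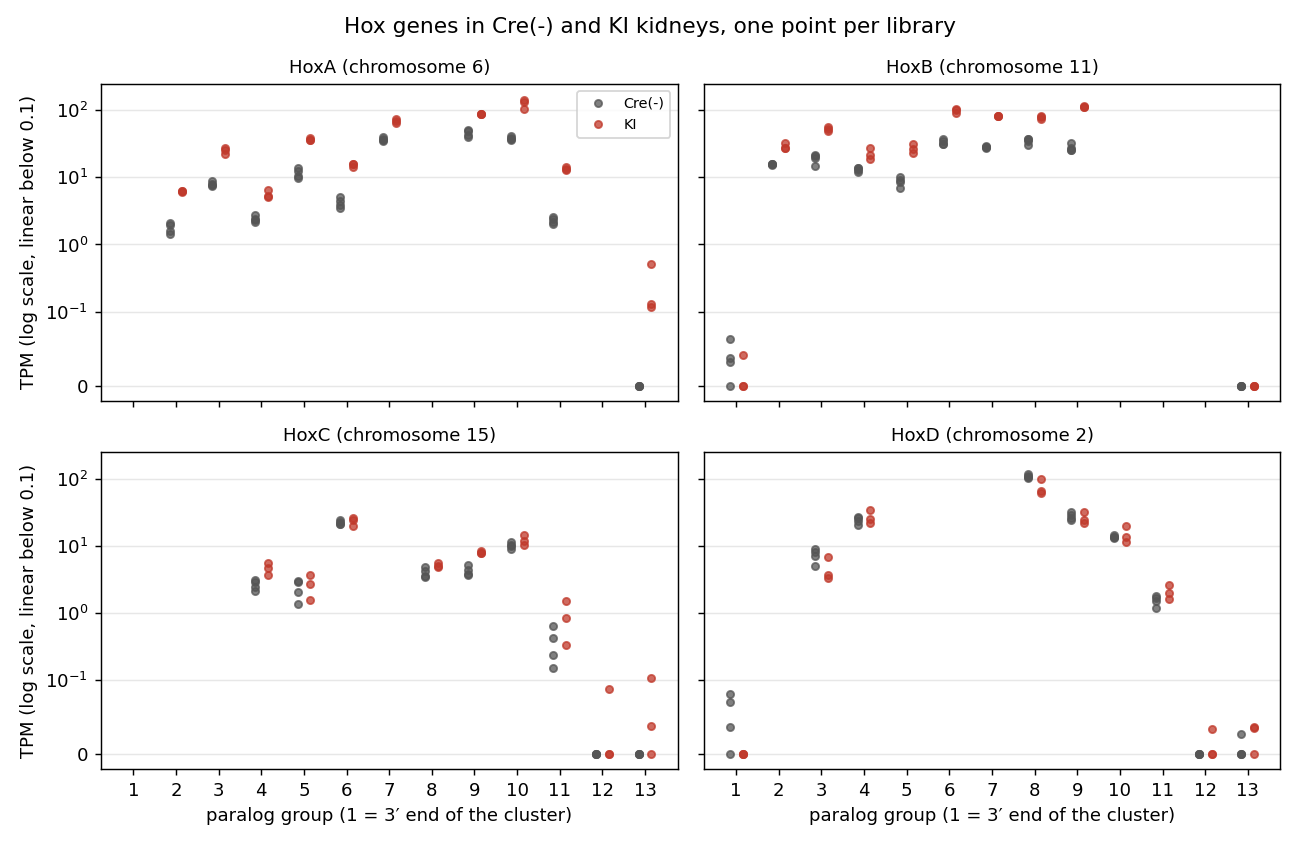
TPM of 38 of the 39 Hox genes (1 HoxA gene is not reported) in each Cre(-) and PRCC-TFE3 KI library, on an axis that is linear near 0 and logarithmic above, with genes ordered by paralog number in a panel for each cluster. Hoxd8 tops the Cre(-) libraries at 100.4 to 115.6 TPM and Hoxa10 the PRCC-TFE3 KI mean at 126.5 TPM, and the genes at the posterior ends lie near 0 in both groups.

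In PRCC-TFE3 KI kidneys HoxA and HoxB genes rose and most HoxD genes fell. Of the 31 members tested against Cre(-), 17 were higher and 4 lower at an adjusted p under 0.05 (edgeR's quasi-likelihood test, Benjamini-Hochberg over 17011 genes), where 31.6% of all genes tested were higher, 29.3% lower and 60.9% called in either direction. The ranges of the groups did not overlap for 18 members that were higher and 4 that were lower (28.9% and 27.7% of all genes). The median log2 fold change was 0.49 over the members and 0.03 over all genes. All 10 tested HoxA genes and 7 of 8 HoxB genes were higher, 0 of 7 HoxC genes were called by edgeR or DESeq2 (61.1% of all genes were by DESeq2, 1 HoxC gene had an unadjusted p under 0.05, and limma on log2(TPM + 1), where 52% of all genes were higher and 14.4% lower, called 3 HoxC genes higher), and 4 of 6 HoxD genes were lower. Without PRCC-TFE3 KI replicate 2 the call counts were 17 higher and 3 lower.

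HoxA genes rose along the cluster. Hoxa11, one of the Hox11 paralogs that induce the kidney, was at 4.18, 4.07, 4.83 and 5.43 CPM in the Cre(-) libraries and at 20.4, 18.2 and 20.6 CPM in the PRCC-TFE3 KI libraries. Every PRCC-TFE3 KI value lay above every Cre(-) value, and the log2 fold change was 2.09 ± 0.20 (SE, adjusted p = 2.73e-07). Hoxa10, a posterior gene best known from the uterus, rose from 55.2 to 59.1 CPM across the Cre(-) libraries to 147.3, 137.2 and 117.9 CPM. That is a log2 fold change of 1.25 ± 0.09 (SE), and it placed Hoxa10 first among the Hox genes of PRCC-TFE3 KI kidneys in mean TPM, at 126.5 ± 18.9 (SD, n = 3). In PRCC-TFE3 KI replicate 3 Hoxb9 was above it, at 112.1 against 105.5 TPM. Hoxa6 (log2 fold change 1.37), Hoxa2 (1.34), Hoxa3 (1.24) and Hoxa5 (1.19), whose knockouts affect the pharyngeal arches (Hoxa2, Hoxa3) or the lung (Hoxa5), changed by about as much. The smallest changes among the 10 were in Hoxa4 (0.74), Hoxa9 (0.49) and Hoxa7 (0.41), the latter going from 51.2 to 62.1 CPM in Cre(-) to 73.3 to 78.4 CPM in PRCC-TFE3 KI libraries without overlap.

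In HoxB the change was largest at the posterior end of the expressed genes. Hoxb9 was at 55.1, 49.6, 65.8 and 60.0 CPM in Cre(-) and at 164.8, 163.3 and 177.5 CPM in PRCC-TFE3 KI libraries. The groups were far apart, with a log2 fold change of 1.55 ± 0.11 (SE, adjusted p = 1.91e-08). Hoxb6 (1.20 ± 0.10), Hoxb5 (1.13 ± 0.14) and Hoxb7 (1.04 ± 0.11, log2 fold change ± SE), the last of them the gene of the ureteric bud and collecting duct, followed. Hoxb7 was at 25.2 to 30.1 CPM in Cre(-) and 53.1 to 61.9 CPM in PRCC-TFE3 KI libraries, while the summed level of 9 principal cell markers of the collecting duct went from 505.6 to 632.9 TPM down to 350.6 to 449.1 TPM. Hoxb3 (0.92), Hoxb8 (0.69) and Hoxb2 (0.45) rose by less. Hoxb4 was the exception, with 27.4 to 33.0 CPM in Cre(-), 29.7 to 47.5 CPM in PRCC-TFE3 KI libraries and a log2 fold change of 0.32 ± 0.15 (SE, adjusted p = 0.0788). In TPM its ranges did not overlap (11.87 to 13.91 against 18.62 to 27.07), and limma on TPM called all 8 tested HoxB genes higher.

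HoxD went the other way on this scale. Hoxd8 was at 128.7, 139.8, 108.5 and 100.3 CPM in Cre(-) and 68.6, 44.8 and 52.8 CPM in PRCC-TFE3 KI libraries. The ranges did not overlap, the log2 fold change was -1.11 ± 0.16 (SE, adjusted p = 2.48e-05), and Hoxd8 went from first to 7th in mean TPM among the members. Hoxd3 (-1.20 ± 0.21) and Hoxd9 (-0.56 ± 0.14, log2 fold change ± SE) were also lower without overlap. Hoxd4 had the smallest called decrease, -0.33 ± 0.11 (SE, adjusted p = 0.0189), its ranges touched (33.3 to 40.5 against 24.0 to 34.2 CPM), and the call was lost without Cre(-) replicate 1, PRCC-TFE3 KI replicate 2 or PRCC-TFE3 KI replicate 3 (adjusted p = 0.0587, 0.125 and 0.0585) and against the pair of Cre(-) libraries without HIF1af/f (adjusted p = 0.153). On the deposited TPM, where the median of all genes lay 0.38 (pseudocount 1) or 0.48 (pseudocount 0.1) higher in PRCC-TFE3 KI kidneys, Hoxd4 turned to 0.14 and only Hoxd3 and Hoxd8 of the HoxD genes stayed called lower. Hoxd10 (-0.35 ± 0.18) and Hoxd11 (0.07 ± 0.20, log2 fold change ± SE) were not called. Hoxd3 and Hoxd4 share 62.3% and 52.3% of their exonic bases on the same strand with each other or with the gene model Gm28230, so the split of reads between them is uncertain.

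HoxC genes, low in the adult kidney apart from Hoxc6 (22.34 ± 1.65 TPM in Cre(-), SD, n = 4) and Hoxc10 (10.10 ± 1.01), ranged in log2 fold change from -0.38 (Hoxc6, adjusted p = 0.0826) to 0.78 (Hoxc11, adjusted p = 0.181). Hoxc11 was near the limit of detection, at 0.265 to 1.17 CPM in Cre(-) and 0.457 to 1.84 CPM in PRCC-TFE3 KI libraries, and a change of its size could not be told from 0 at this depth.

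**Figure D2:**
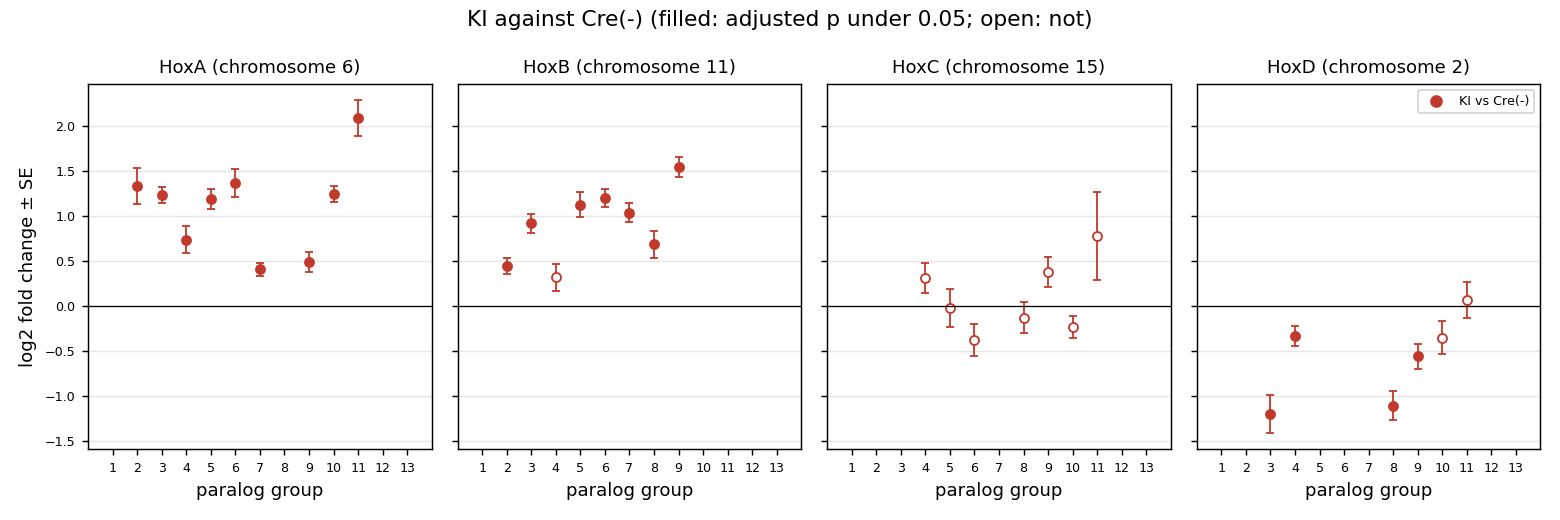
Log2 fold change ± SE of PRCC-TFE3 KI against Cre(-) kidneys for 30 of the 31 tested Hox genes by paralog number, in a panel for each cluster, with filled points for an adjusted p under 0.05. HoxA and HoxB points lie between 0.32 and 2.09, HoxD points between -1.20 and 0.07, and on the deposited TPM Hoxd4 turned to 0.14.

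Sorted by paralog number, the HoxD genes stood lowest. At number 9 the log2 fold changes were 0.49 for Hoxa9, 1.55 for Hoxb9, 0.38 for Hoxc9 (not called) and -0.56 for Hoxd9. At number 3 they were 1.24 for Hoxa3, 0.92 for Hoxb3 and -1.20 for Hoxd3, and at number 8 they were 0.69 for Hoxb8, -0.13 for Hoxc8 (not called) and -1.11 for Hoxd8. The HoxD member had the lowest value in each of these sets, and also at numbers 4, 10 and 11. By position over all clusters, 5 of 6 tested genes with numbers 1 to 3 were higher and 1 lower, 8 of 15 with numbers 4 to 8 were higher and 2 lower, and 4 of 10 with numbers 9 to 13 were higher and 1 lower, where 31.6% and 29.3% of all genes were. The share higher among numbers 9 to 13 was near that of all genes.

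The makeup of Hox mRNA shifted with this. The summed Hox TPM went from 562.5 ± 7.78 in Cre(-) (SD, n = 4) to 1105 ± 78.4 in PRCC-TFE3 KI kidneys (SD, n = 3), on a scale whose median over all genes also rose as given above. Within that sum, which does not depend on scaling between libraries, the HoxA share went from 27.1 ± 1.00% to 35.7 ± 1.70%, HoxB from 32.4 ± 1.69% to 45.7 ± 2.43%, HoxC from 8.2 ± 0.77% to 5.1 ± 0.06% and HoxD from 32.4 ± 1.71% to 13.5 ± 2.41%. The sums behind these shares rose for HoxA (152.2 ± 7.27 to 394.3 ± 28.4 TPM) and HoxB (182.2 ± 11.0 to 503.9 ± 20.1 TPM), and the HoxC sum was 45.99 ± 3.94 TPM in Cre(-) and 56.47 ± 4.52 in PRCC-TFE3 KI kidneys. The HoxD sum was 170.6 to 189.3 TPM in the Cre(-) libraries and 194.5, 126.0 and 130.6 TPM in the PRCC-TFE3 KI libraries, so that PRCC-TFE3 KI replicate 1 lay above every Cre(-) library and the lower HoxD share there went with a larger Hox total. The ratio of HoxA to HoxD TPM was 0.749, 0.84, 0.837 and 0.927 in the Cre(-) libraries and 2.16, 3.16 and 2.79 in the PRCC-TFE3 KI libraries, with no overlap. The share by position moved less, from 60 to 52 ± 1.11% for numbers 4 to 8, from 30.5 to 36.8 ± 1.14% for 9 to 13 and from 9.5 to 11.3 ± 0.11% for 1 to 3.

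These kidneys also differed in cell makeup, and in whole tissue fewer cells of a type and less RNA per cell cannot be told apart. The summed level of 10 proximal tubule markers was 17680 to 27450 TPM in Cre(-) and 285.3 to 378.0 TPM in PRCC-TFE3 KI libraries, with 10 of 10 called lower. Those of the thick ascending limb (5 of 5 lower) went from 2380 to 3212 TPM to 479.8 to 865.7 TPM, of the distal convoluted tubule (4 of 4 lower) from 1078 to 1561 TPM to 125.9 to 181.2 TPM, and of intercalated cells (7 of 8 lower) from 285.5 to 360.3 TPM to 88.1 to 151.3 TPM. Summed markers of fibroblasts and pericytes (6 of 8 higher) rose from 99.4 to 120.2 TPM to 316.4 to 373.0 TPM, of macrophages and leukocytes (4 of 6 higher) from 45.6 to 49.6 TPM to 1612 to 1806 TPM, and of urothelium (6 of 6 higher) from 12.0 to 20.9 TPM to 31.9 to 207.5 TPM. No cell type marker list had a member at 0 in a whole group. Most of the macrophage sum was Cd68 (log2 fold change 7.87), while Csf1r was at -0.21 and not called. The part of these shifts in the Hox changes was not tested.

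Promoter sequence was read because members of a cluster moved together. RefSeq (GRCm38.p6) gave 24 windows of the 250 bases before a start site for 22 of the 39 members, of 32851 windows in all. Most were of HoxA and HoxD genes. Of HoxB only Hoxb1, Hoxb4 and Hoxb8 had a window, and of HoxC only Hoxc4, so matches were not compared between clusters. The letters searched on both strands were the E-box forms of the TFE3 family, TCACGTGA, TCATGTGA and TCATATGA, the plain E-box CACGTG, and the hypoxia cores ACGTG and GCGTG of HIF factors, of which ACGTG also lies inside CACGTG. An 8-letter form was in the windows of Hoxa2, Hoxa11 and Hoxd11, and in 1.88% of all windows. CACGTG was in those of Hoxd1, Hoxd10, Hoxd11 and Hoxd13 and in 6.02% of all, and a hypoxia core in those of 10 members and in 38.6% of all. Printed here are the windows of 2 HoxA genes with an 8-letter form that rose (Hoxa11, Hoxa2), of a HoxD gene with CACGTG (Hoxd10) and of the leading HoxD gene, which has no match (Hoxd8). They are written 5′ to 3′ on the gene's strand, and capitals mark the matches on either strand.
Hoxa11, chr6:52245811-52246060 (- strand): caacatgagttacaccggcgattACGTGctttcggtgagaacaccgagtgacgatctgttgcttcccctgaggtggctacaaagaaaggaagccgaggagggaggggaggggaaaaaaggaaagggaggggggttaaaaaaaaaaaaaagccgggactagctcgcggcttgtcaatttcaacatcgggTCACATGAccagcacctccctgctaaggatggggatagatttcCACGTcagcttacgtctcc
Hoxa2, chr6:52164832-52165081 (- strand): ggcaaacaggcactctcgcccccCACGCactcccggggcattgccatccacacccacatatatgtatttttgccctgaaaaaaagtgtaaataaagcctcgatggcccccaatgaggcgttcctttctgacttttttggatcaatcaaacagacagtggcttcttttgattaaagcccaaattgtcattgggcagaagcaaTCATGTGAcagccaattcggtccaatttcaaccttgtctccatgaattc
Hoxd10, chr2:74691641-74691890 (+ strand): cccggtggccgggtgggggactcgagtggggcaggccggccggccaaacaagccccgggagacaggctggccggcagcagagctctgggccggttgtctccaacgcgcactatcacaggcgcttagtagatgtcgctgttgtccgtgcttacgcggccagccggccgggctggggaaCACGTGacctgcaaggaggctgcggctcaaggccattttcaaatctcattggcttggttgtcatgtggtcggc
Hoxd8, chr2:74704365-74704614 (+ strand): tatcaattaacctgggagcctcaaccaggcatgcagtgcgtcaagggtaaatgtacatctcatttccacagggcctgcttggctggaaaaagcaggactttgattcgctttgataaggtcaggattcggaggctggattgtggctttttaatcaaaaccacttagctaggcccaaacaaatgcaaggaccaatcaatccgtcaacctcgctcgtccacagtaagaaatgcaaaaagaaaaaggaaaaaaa
In the Hoxa11 window the 8-letter form starts 62 bases before the start site, in that of Hoxa2 49 bases before it, and in that of Hoxd10 CACGTG starts 73 bases before it. Hoxa10, Hoxa3 and Hoxa5, which also rose, hold GCGTG only. The windows of Hoxa6, Hoxa7, Hoxa9 and Hoxb8, which rose too, hold no match. TCACGTGA was found only in a window of Hoxd11, which was not called in PRCC-TFE3 KI against Cre(-) kidneys. Hoxd11 was called higher than in Cre(-) in DKO kidneys and in Hif1α KO kidneys. The latter call was lost without Cre(-) replicate 2 or Hif1α KO replicate 3. Whether a match went with a change was not tested.

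Partners and regulators of Hox proteins were read as fixed lists. In the same comparison 31.6% and 29.3% of all genes were higher and lower. Of 9 TALE cofactors, 3 were higher and 3 lower in PRCC-TFE3 KI than in Cre(-) kidneys, with a median log2 fold change of -0.15. Meis3 rose by 2.24 ± 0.17 (SE), from 4.26 to 20.0 CPM, Pbx3 by 0.67 and Pknox2 by 0.58, while Meis2 (-0.72) and Meis1 (-0.57) were lower. Of 25 tested regulators of Hox clusters (28 listed), 10 were higher and 5 lower (median 0.10). Among the Polycomb genes Ezh2 (0.89), Pcgf2 (0.60), Phc2 (0.58) and Cbx8 (0.49) were higher and Phc1 (-0.40) and Ring1 (-0.36) lower, and Cyp26b1, which degrades the Hox inducer retinoic acid, was lower by -3.39 ± 0.43 (SE, 34.0 to 3.23 CPM). Of 13 tested kidney development genes, 6 were higher, among them Ret (5.33), Wnt4 (3.78), Eya1 (3.46) and Pax2 (1.00), and 4 lower, among them Gfra1 (-1.78) and Lhx1 (-1.31), with a median of 0.23.

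Of 21 tested genes in the flanks of the clusters, 10 were higher and 5 lower (median 0.19), where 31.6% and 29.3% of all genes were. Beside HoxA, Skap2 was at 0.80 and Hibadh at -1.92, beside HoxB Skap1 was at 1.60 and Atp5g1 at -1.24, and beside HoxD Nfe2l2 was at 0.67, Mtx2 at -0.61 and Atp5g3 at -1.15 (log2 fold changes, all called). Of the genes within the clusters 3 of 46 could be tested, and of these Gm28230, which overlaps Hoxd3 and Hoxd4, was lower by -0.86 ± 0.15 (SE). The rest were not analysed here.

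The 3 floxed groups were then set beside Cre(-). These comparisons and the one above share the 4 Cre(-) libraries, so the calls are not independent of each other. In Hif1α KO kidneys 16 members were higher and 5 lower (31.9% and 30.1% of all genes, 61.9% in either direction), in Hif2α KO kidneys 16 and 4 (32% and 29.9%, 61.9%), and in DKO kidneys 17 and 0 (30.4% and 27.9%, 58.3%). In DKO kidneys 17 members lay above all Cre(-) values and 0 below (30.9% and 28.5% of all genes). The HoxA medians were 0.74, 0.88 and 0.85 and the HoxB medians 0.67, 0.79 and 0.75 in Hif1α KO, Hif2α KO and DKO kidneys, beside 1.25 and 0.98 in PRCC-TFE3 KI kidneys. Hoxb9 was higher by 1.25, 1.34 and 1.19, Hoxb5 by 1.02, 1.14 and 1.15, and Hoxa2 by 1.25, 1.24 and 1.11, in that order of groups. The HoxD medians were -0.32, -0.16 and 0.09, beside -0.46 in PRCC-TFE3 KI kidneys. Hoxd8 was lower in Hif1α KO (-0.61 ± 0.15) and Hif2α KO (-0.61 ± 0.16) kidneys and was not called in DKO kidneys (-0.29 ± 0.16, SE, adjusted p = 0.131), but it was called lower there without DKO replicate 2 (-0.44, adjusted p = 0.038) and against the pair of Cre(-) libraries with HIF1af/f (-0.45, adjusted p = 0.0428). Against the pair without HIF1af/f, 2 members were lower in Hif1α KO and 0 in Hif2α KO and DKO kidneys, and against the pair with it 6, 4 and 1.

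In DKO kidneys the 3 members called outside HoxA and HoxB were higher: Hoxc4 (0.69 ± 0.16), Hoxd11 (0.70 ± 0.20) and Hoxd10 (0.51 ± 0.18, log2 fold change ± SE). Hoxd11 was at 2.68 to 3.22 CPM in Cre(-) and at 3.75, 4.85 and 5.71 CPM in DKO libraries. With library medians of TPM aligned neither Hoxd11 (adjusted p = 0.0549) nor Hoxd10 (adjusted p = 0.0782) was called, and Hoxc6 was called lower without DKO replicate 2 (-0.46, adjusted p = 0.0449). Hoxd10 overlapped in no library either (20.0 to 24.2 against 25.1, 36.3 and 31.4 CPM), but its call was lost without DKO replicate 2 (adjusted p = 0.111) or replicate 3 (adjusted p = 0.0521), and against the pair of Cre(-) libraries without HIF1af/f (adjusted p = 0.101). Hoxc6 (-0.53 and -0.59) and Hoxc10 (-0.46 and -0.36) were lower in Hif1α KO and Hif2α KO kidneys. In Hif2α KO kidneys the call of Hoxc6 was lost without Hif2α KO replicate 3 (adjusted p = 0.0631), and that of Hoxc10 without Cre(-) replicate 1 (0.0647) or Hif2α KO replicate 3 (0.071). The call of Hoxd3 there was lost without Cre(-) replicate 1, 2 or 4 or Hif2α KO replicate 1 or 2 (adjusted p = 0.0549 to 0.148). Against the pair of Cre(-) libraries without HIF1af/f the lower calls lost were Hoxc6, Hoxd3 and Hoxd4 in Hif1α KO (adjusted p = 0.0674, 0.0683 and 0.0932) and Hoxc6, Hoxc10, Hoxd3 and Hoxd8 in Hif2α KO kidneys (adjusted p = 0.0613, 0.118, 0.226 and 0.0668). On the deposited TPM the calls were 23 higher and 0 lower in Hif1α KO, 25 and 0 in Hif2α KO and 28 and 0 in DKO kidneys, where 53.2% and 14%, 56.3% and 12.4%, and 58.8% and 10.8% of all genes were, with the median of all genes 0.35 to 0.56 above Cre(-). The calls of Hoxd3, Hoxd4, Hoxd8, Hoxc6 and Hoxc10 as lower thus depend on the scaling between libraries, and none of them was called lower on the deposited TPM in these 3 comparisons. Limma with library medians of TPM aligned called 2 HoxC and 3 HoxD genes lower in Hif1α KO and 2 and 1 in Hif2α KO kidneys. Hoxd3 was not among them (adjusted p = 0.0825 and 0.215), and 9720 and 9656 of all 17011 genes were called in either direction.

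**Figure D3:**
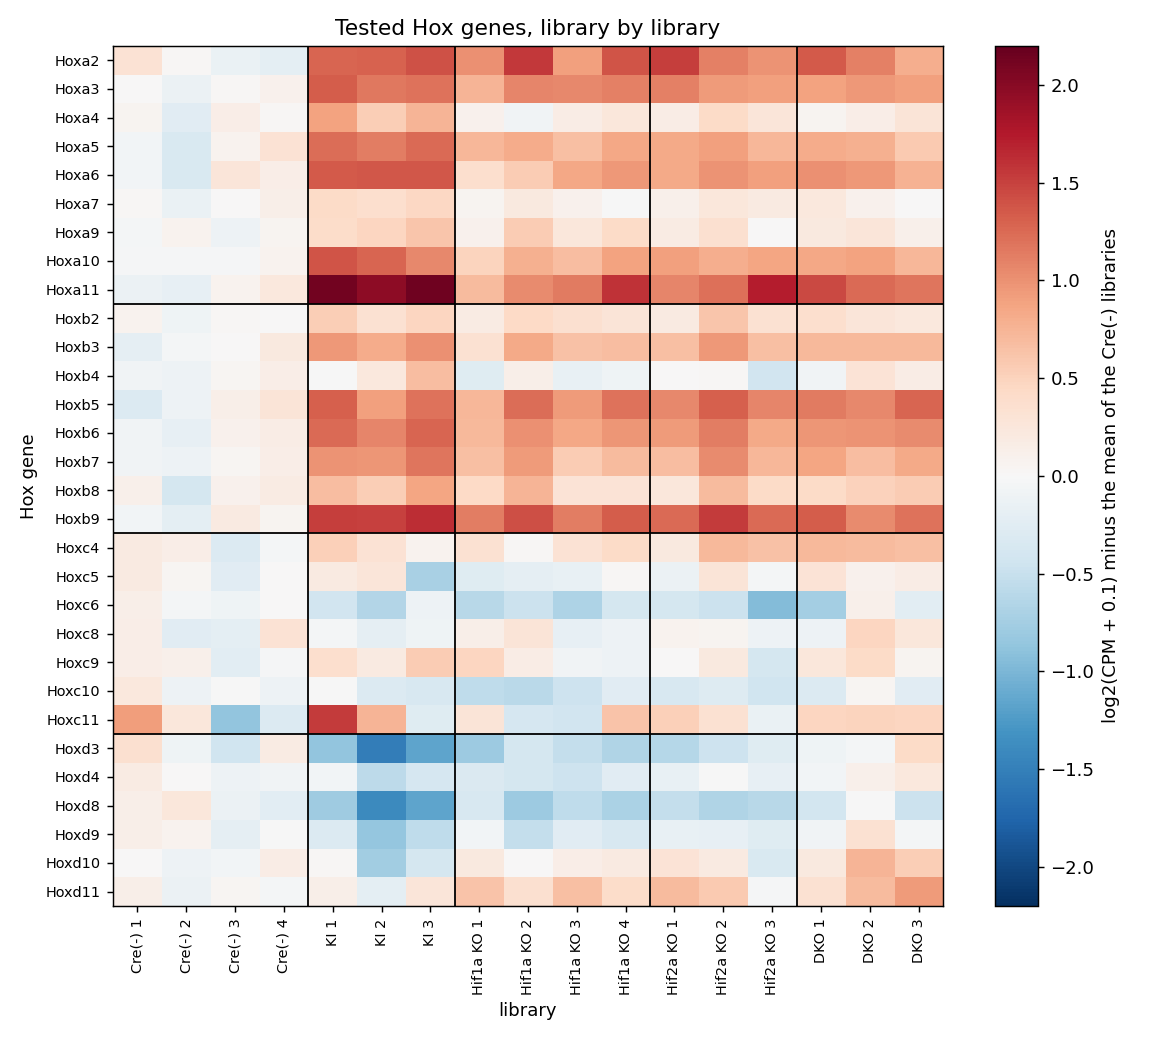
Log2(CPM + 0.1) minus the Cre(-) mean for 30 of the 31 tested Hox genes (rows, by cluster and paralog number) in the 17 libraries (columns, by group), with red above and blue below the Cre(-) mean. HoxA and HoxB rows are mostly red in the 4 groups with KSP-Cre, and the HoxD rows are bluest in the PRCC-TFE3 KI columns, where Hoxd8 is at 44.8 to 68.6 CPM, though Hoxd4 turns to a rise of 0.14 on the deposited TPM.

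Against PRCC-TFE3 KI kidneys, loss of both Hif genes went with higher HoxD and lower HoxA. In DKO kidneys 5 members were higher and 7 lower, where 6.53% and 6.19% of all genes were (12.7% in either direction), and the 5 were HoxD genes and the 7 HoxA genes. The ranges did not overlap for 7 members that were higher and 13 that were lower (16.5% and 17.2% of all genes). The PRCC-TFE3 KI libraries are shared with the comparison against Cre(-), so the opposite signs of these changes are not independent evidence. Hoxd3 was at 7.64, 4.85 and 6.22 CPM in PRCC-TFE3 KI and at 13.2, 13.6 and 18.8 CPM in DKO libraries, a log2 fold change of 1.28 ± 0.21 (SE, adjusted p = 0.00295). Hoxd8 was at 68.6, 44.8 and 52.8 CPM in PRCC-TFE3 KI and at 89.8, 118.1 and 85.7 CPM in DKO libraries, a log2 fold change of 0.82 ± 0.17 (SE, adjusted p = 0.00801). All DKO values were above all PRCC-TFE3 KI values for both genes. Hoxd10 rose by 0.86 ± 0.19, Hoxd9 by 0.64 ± 0.15 and Hoxd4 by 0.42 ± 0.12 (log2 fold change ± SE), and Hoxd11 was at 0.62 ± 0.21 (adjusted p = 0.0662).

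Among the HoxA genes lower in DKO kidneys, Hoxa11 was at 12.8, 11.0 and 10.5 CPM against 20.4, 18.2 and 20.6 CPM in PRCC-TFE3 KI libraries (log2 fold change -0.78 ± 0.20, SE), and Hoxa10 at 102.0, 104.3 and 92.9 CPM against 147.3, 137.2 and 117.9 CPM (-0.43 ± 0.10). Neither range overlapped. Hoxa4 (-0.59), Hoxa5 (-0.48), Hoxa3 (-0.32) and Hoxa7 (-0.30) were also lower, and Hoxa2 (-0.23), Hoxa6 (-0.46) and Hoxa9 (-0.30) were not called. Of the HoxB and HoxC genes 0 were called by edgeR (2 and 1 had an unadjusted p under 0.05) and 1 HoxB gene, Hoxb9, by DESeq2 (17% of all genes), and Hoxb9 (-0.36 ± 0.12, SE, adjusted p = 0.0583) came nearest. Many of these calls rest on few libraries: 5 of the 12 were left without PRCC-TFE3 KI replicate 3, 3 without DKO replicate 2 and 4 without DKO replicate 3. Without PRCC-TFE3 KI replicate 2, 10 of the 12 were left.

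The HoxA to HoxD ratio was 1.36, 1.05 and 1.15 in DKO libraries, below each PRCC-TFE3 KI library (2.16 to 3.16) and above each Cre(-) library (0.749 to 0.927). It was 1.17, 1.89, 1.44 and 1.71 in Hif1α KO and 1.44, 1.56 and 1.59 in Hif2α KO libraries, also between those ranges. The HoxB to HoxD ratio was 3.47 ± 0.70 in PRCC-TFE3 KI, 2.16 ± 0.46 in Hif1α KO, 2.18 ± 0.30 in Hif2α KO, 1.70 ± 0.23 in DKO and 1.00 ± 0.10 in Cre(-) kidneys (SD). The HoxA to HoxB ratio moved less, between 0.697 and 0.837 in group means. It was 0.802 to 0.894 in Cre(-) libraries and 0.711 to 0.827 in PRCC-TFE3 KI libraries. Below all Cre(-) values lay the Hif1α KO (0.679 to 0.777), Hif2α KO (0.636 to 0.777) and DKO (0.64 to 0.726) libraries. The HoxC to HoxD ratio was 0.386 ± 0.060 in PRCC-TFE3 KI and 0.244 to 0.261 in the mean of the other groups.

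**Figure D4:**
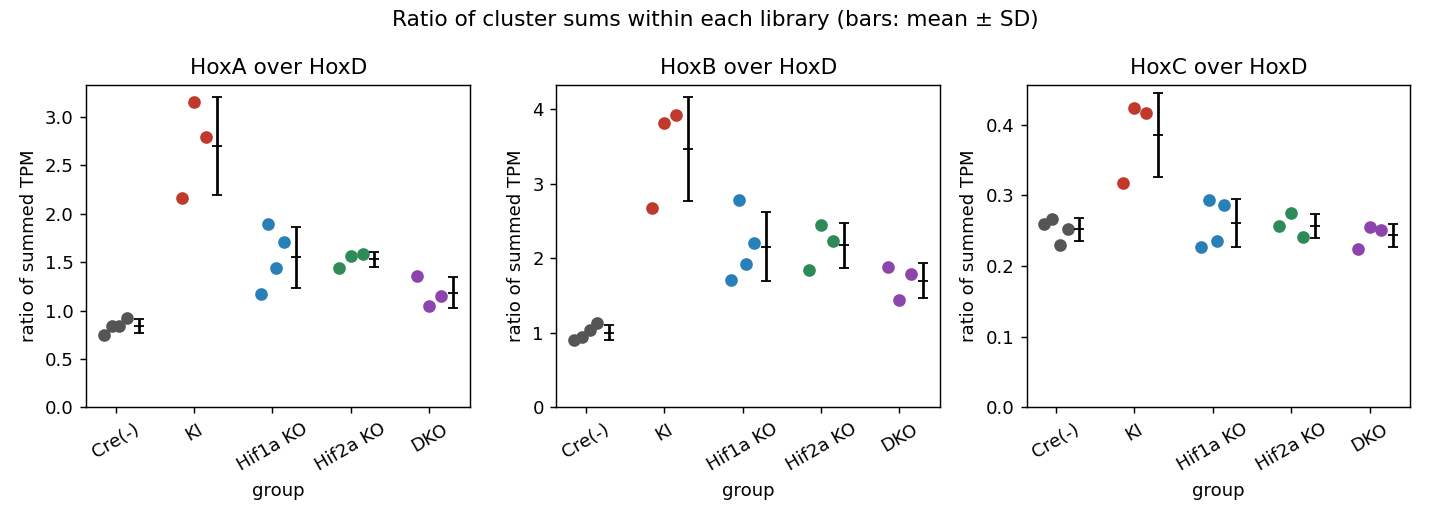
Ratio of summed HoxA, HoxB and HoxC TPM to summed HoxD TPM in each library (points) with the group mean ± SD (bars) for the 5 genotypes. For HoxA the 3 PRCC-TFE3 KI libraries lie at 2.16 to 3.16 and the 3 DKO libraries at 1.05 to 1.36, above the 4 Cre(-) libraries at 0.749 to 0.927.

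Cell type markers moved between PRCC-TFE3 KI and DKO kidneys too. Summed thick ascending limb markers were at 1643 to 2613 TPM in DKO libraries against 479.8 to 865.7 TPM (5 of 5 higher), proximal tubule markers at 1118 to 2972 TPM against 285.3 to 378.0 TPM (6 of 10 higher), principal cell markers at 554.9 to 726.5 TPM against 350.6 to 449.1 TPM (3 of 9 higher, Aqp2 by 1.37 log2), and fibroblast and pericyte markers at 393.3 to 589.0 TPM against 316.4 to 373.0 TPM (5 of 8 higher). Distal convoluted tubule markers were at 268.6 to 598.8 TPM against 125.9 to 181.2 TPM (1 of 4 higher) and intercalated cell markers at 156.6 to 249.9 TPM against 88.1 to 151.3 TPM (0 of 8 called). Adipocyte markers had a median log2 fold change of -2.58 and urothelium markers of -0.4, with 0 of 7 and 0 of 6 called. Their summed ranges overlapped, at 22.78 to 295.8 against 72.42 to 3038 TPM and 52.31 to 211.2 against 31.87 to 207.5 TPM. The summed level of macrophage and leukocyte markers also went the other way, at 611.4 to 1006 TPM against 1612 to 1806 TPM. Cd68 was lower by -1.39 log2, Adgre1 higher by 0.76 and the other 4 not called, and the median log2 fold change of the 6 was 0.73. The part of these marker shifts in the higher HoxD and lower HoxA levels was not tested. In this comparison 6.53% of all genes were called higher and 6.19% lower. Of 9 TALE cofactors 1 was called higher. Aldh1a2, which makes retinoic acid, was the regulator called of 25 (1.21 ± 0.28, SE), and Gata3 (0.79) and Wnt4 (-0.77) were the development genes called of 13. Gm28230 was higher by 0.74 ± 0.16, and in the flanks 0 genes were higher and 3 lower of 21 (Nfe2l2 -0.35, Skap2 -0.34 and Atf7 -0.27).

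Loss of Hif1α alone went with lower HoxA. In Hif1α KO kidneys 0 members were higher and 7 lower than in PRCC-TFE3 KI kidneys (2.57% and 2.86% of all genes, 5.44% in either direction), and all 7 were HoxA genes. The ranges did not overlap for 2 members that were higher and 11 that were lower (8.96% and 10.3% of all genes). Hoxa11 was at 7.53, 9.50, 10.3 and 14 CPM against 20.4, 18.2 and 20.6 CPM (log2 fold change -0.93 ± 0.19, SE, adjusted p = 0.0144). Hoxa10 was at 78.8, 97.2, 90.7 and 103.9 CPM against 147.3, 137.2 and 117.9 CPM (-0.53 ± 0.09, adjusted p = 0.00734). The ranges of both genes did not overlap. Hoxa6 (-0.67), Hoxa4 (-0.63), Hoxa5 (-0.44) and Hoxa7 (-0.33) were also lower. The 8 HoxB genes were all below 0 (median -0.30), with 0 called by edgeR (5 at an unadjusted p under 0.05), 2 by DESeq2 (Hoxb6 and Hoxb7, with 9.78% of all genes called) and 1 by limma on TPM (Hoxb6, with 3.71%). HoxD values were above 0 except for Hoxd4 (-0.03), up to 0.58 ± 0.20 for Hoxd3, with 0 called by edgeR (4 at an unadjusted p under 0.05) and 1 by DESeq2. The count of 7 became 2 without PRCC-TFE3 KI replicate 3, Hif1α KO replicate 1 or Hif1α KO replicate 3, and 1 in a fit on these 2 groups alone. Without PRCC-TFE3 KI replicate 2, 5 of the 7 were still called. Cell type markers moved in this comparison too, with thick ascending limb markers at 1203 to 2312 TPM against 479.8 to 865.7 TPM (4 of 5 higher) and proximal tubule markers at 496.5 to 1648 TPM against 285.3 to 378.0 TPM (5 of 10 higher). Summed macrophage and leukocyte markers were at 737.5 to 1087 TPM against 1612 to 1806 TPM, with Cd68 at -0.93 log2 lower and Adgre1 at 0.70 higher. The median log2 fold change of these 6 markers was 0.43. The part of these marker shifts in the lower HoxA levels was not tested.

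Loss of Hif2α alone gave no call. Against PRCC-TFE3 KI kidneys 0 of 31 members passed in Hif2α KO kidneys by edgeR's quasi-likelihood test, where 1.39% of all genes did (0.741% higher and 0.647% lower), 15 had an unadjusted p under 0.05, and DESeq2 called 4 (5.97% of all genes). The 10 HoxA genes were all below 0 (median -0.38) and the 6 HoxD genes all above 0 (median 0.40). Hoxa10 came nearest to a call, at 105.7, 97.6 and 102.8 CPM against 147.3, 137.2 and 117.9 CPM (-0.39 ± 0.10, SE, adjusted p = 0.0541), and Hoxd3 was at 9.07, 10.2 and 11.6 CPM against 7.64, 4.85 and 6.22 CPM (0.72 ± 0.21, adjusted p = 0.0929). Neither range overlapped, as for 3 members that were higher and 9 that were lower in all (9.52% and 10.7% of all genes). The count was 2, both higher, without PRCC-TFE3 KI replicate 1. Cell type markers moved here too. Summed thick ascending limb markers were at 1167 to 2041 TPM against 479.8 to 865.7 TPM (1 of 5 higher). Proximal tubule markers were at 403.3 to 1353 TPM against 285.3 to 378.0 TPM (0 of 10 called). Those of macrophages and leukocytes were at 992.2 to 1321 TPM against 1612 to 1806 TPM (0 of 6 called, median log2 fold change 0.62). The part of these marker shifts in the Hox levels was not tested.

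The single knockouts were not told apart. In the direct comparison of Hif1α KO with Hif2α KO kidneys 0 of 31 members passed by edgeR, by DESeq2 or by limma on TPM, where 0.429% of all genes did by edgeR (0.329% higher and 0.0999% lower), 3.19% by DESeq2 and 0.17% by limma, and 1 had an unadjusted p under 0.05. The ranges did not overlap for 0 members that were higher and 2 that were lower in Hif1α KO kidneys (8.31% and 6.75% of all genes). A lower HoxA in Hif1α KO than in PRCC-TFE3 KI kidneys and no call in Hif2α KO kidneys is therefore not a shown difference between the single knockouts.

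**Figure D5:**
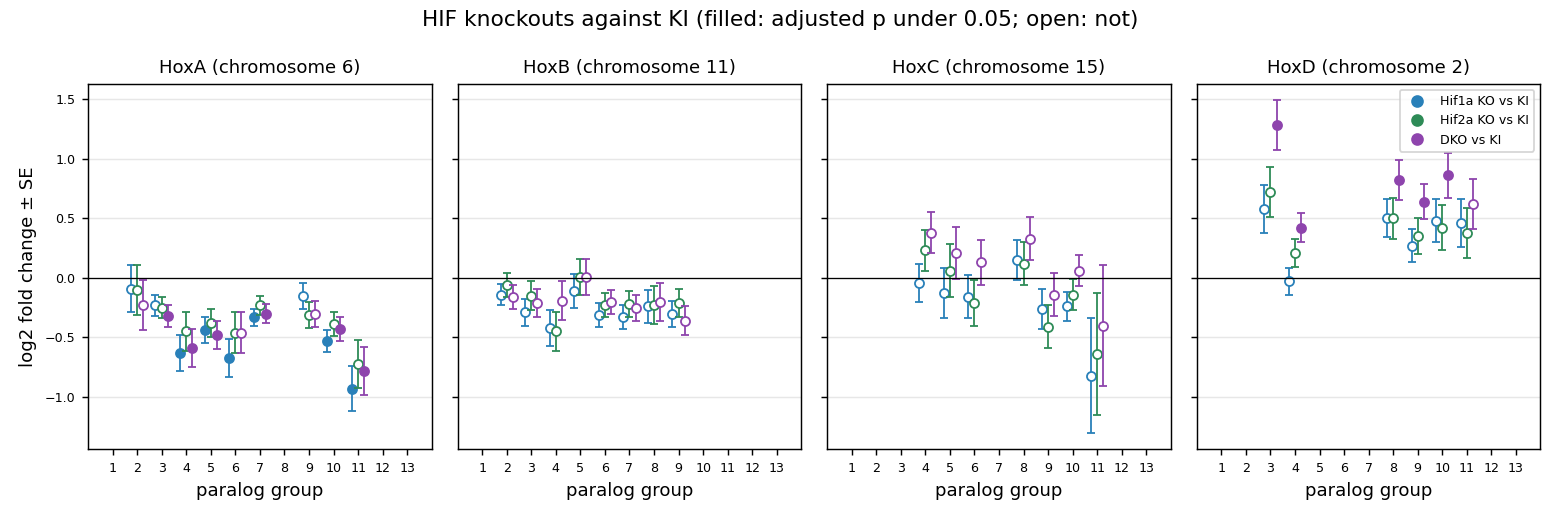
Log2 fold change ± SE of Hif1α KO, Hif2α KO and DKO against PRCC-TFE3 KI kidneys for 30 of the 31 tested Hox genes by paralog number, in a panel for each cluster, with filled points for an adjusted p under 0.05. HoxA points lie below 0 in all 3 comparisons (to -0.93 for Hoxa11 in Hif1α KO), and HoxD points lie above 0 except Hoxd4 in Hif1α KO (-0.03).

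Transcripts within a gene shifted as well. The transcript Hoxa10-203, annotated as a processed transcript without a coding sequence, took 68.4% of the Hoxa10 counts in Cre(-) and 57.8% in PRCC-TFE3 KI kidneys, and Hoxa10-202 took 12.1% and 20.0%. For Hoxb6 the share of Hoxb6-202 was 64.3% in Cre(-), 83.9% in PRCC-TFE3 KI, 89.3% in Hif1α KO, 81.7% in Hif2α KO and 88.6% in DKO kidneys. All Hoxa11 counts were on its coding transcript in each group. These shares are estimates from pooled counts of reads of 75 nucleotides, with no test. Antisense genes overlap 52.9% of the exonic bases of Hoxb3, 35.0% of Hoxa11, 27.3% of Hoxb2 and 25.4% of Hoxa3, and the strand setting of the counting was not given in the sources used here, so reads of those antisense genes may be among their counts.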

How the data were processed

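Whole kidneys were profiled by stranded mRNA-seq (single-end, 75 nucleotides). Per the study's methods and processing notes, the authors trimmed reads with Trim Galore 0.6.6 and cutadapt 2.5, aligned them with STAR 2.7.9a and quantified transcripts with RSEM 1.3.3. The methods name a human genome for alignment, but the deposited rows are mouse transcripts. The authors deposited expected counts and TPM per transcript and library. Here expected counts were summed per gene by GENCODE GRCm38 identifiers, which matched 97.8% of transcripts and 99.04 to 99.24% of counts, and rounded. TPM were summed for levels. Genes passing filterByExpr (minimum count 10, 17011 genes) were tested by edgeR 4.0.16 quasi-likelihood fits over all 17 libraries with TMM factors, at a false discovery rate of 0.05. DESeq2 1.42.0 and limma 3.58.1 on log2(TPM + 1) or log2(TPM + 0.1) served as alternatives. The log2 TPM fold changes understate low genes. In counts simulated for PRCC-TFE3 KI against Cre(-), with 200 of 16777 genes changed, 59% of genes changed 2-fold were called, and 5.1% of calls were false (71% and 13% with DESeq2). In the data 60.9% of genes were called in that comparison, so these rates need not hold for the calls above. Depth sets a floor of 0.117 to 0.206 CPM (3 counts), covering counting error only. Members passing filters were reported, with list genes by largest change. Single values of 1 member and 1 listed gene are not reported here, though counts and sums include them. Members and lists were chosen with earlier results of these data known. Library numbers largely follow the groups, so library order and genotype cannot be told apart.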

Additional observations from a re-analysis of the deposited data

Results flagged for a closer look

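Within the 4-library groups, 2 of 60 series of Hox values (30 genes in each of 2 groups) had a library that stood apart, by a gap to its nearest neighbor that was large against the group's range. Chance flags about 1 in 20 such series. Hoxa10 was at 59.1 CPM in Cre(-) replicate 4, with the others at 55.2 to 55.6 CPM. Hoxa3 was at 27.4 CPM in Hif1α KO replicate 1, with the others at 33.8 to 35.1 CPM. Both genes were called higher in PRCC-TFE3 KI than in Cre(-) kidneys with any 1 library left out.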

How the results depend on the processing

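Requiring an absolute log2 fold change of 1 left 13, 5, 5 and 4 members called against Cre(-) in PRCC-TFE3 KI, Hif1α KO, Hif2α KO and DKO kidneys, and 1 and 2 against PRCC-TFE3 KI in Hif1α KO and DKO kidneys, where 27.5, 26, 28.1, 26.1, 1.36 and 4.05% of all genes passed in the same order. On the deposited TPM (pseudocounts 1 and 0.1), DKO against Cre(-) gave 28 calls with either, DKO against PRCC-TFE3 KI gave 7 with 0.1, and the log2 fold change reversed for Hoxd4 in PRCC-TFE3 KI (0.14 and 0.14) and Hif1α KO (0.15 and 0.15), and for Hoxc10 (0.15 and 0.16), Hoxd8 (0.04 and 0.04) and Hoxd3 (0.16 and 0.19) in Hif2α KO kidneys, with the median of all genes shifted by 0.35 to 0.56. With library medians aligned, an alternative chosen after seeing the data, PRCC-TFE3 KI against Cre(-) gave 18 higher and 4 lower and Hif2α KO against PRCC-TFE3 KI gave 1 call. DESeq2 gave 4 calls there, in a comparison that was not simulated. Fits on the groups compared alone gave 1 call for Hif1α KO and 4 for DKO against PRCC-TFE3 KI. Leaving out 1 library gave 20 to 24 calls for PRCC-TFE3 KI, 20 to 22 for Hif1α KO, 16 to 19 for Hif2α KO and 15 to 18 for DKO against Cre(-), 2 to 8, 0 to 2 and 3 to 12 for Hif1α KO, Hif2α KO and DKO against PRCC-TFE3 KI, and 0 between the single knockouts.

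Replicate numbers were not taken to pair the samples, since in 0 of 8 comparisons did every pair of same-numbered libraries deviate together with a correlation over 0.1. The correlations ran from -0.223 to 0.249 over 25 pairs, and 4 were over 0.1. A fit with the number as a block gave 21 calls for PRCC-TFE3 KI and 18 for Hif2α KO against Cre(-), and 6 and 9 for Hif1α KO and DKO against PRCC-TFE3 KI.

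With CPM in place of TPM the shares in Cre(-), PRCC-TFE3 KI, Hif1α KO, Hif2α KO and DKO kidneys were 36.8, 49.8, 47.7, 48.2 and 46.0% for HoxB, 12.1, 13.8, 13.7, 14.2 and 13.4% for numbers 1 to 3, 54.3, 47.1, 48.3, 48.4 and 49.8% for 4 to 8 and 33.6, 39.0, 38.0, 37.5 and 36.8% for 9 to 13. HoxC in PRCC-TFE3 KI was 4.9%, and HoxD was 28.3, 16.9, 16.7 and 20.2% in Cre(-), Hif1α KO, Hif2α KO and DKO kidneys. CPM does not account for transcript length. For the other changes the cause was not tested.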
